A study of Mus musculus with 24 samples.

Results

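Lymphocyte markers in the liver were 9 genes: Cd3e, Cd3g, Cd4 and Cd8a for T cells, Cd79a, Cd79b and Ms4a1 for B cells, and Nkg7 and Klrb1c for natural killer (NK) cells. They were chosen by name from the 19938 genes with a probe set annotated to that gene symbol alone, and each of the 9 had exactly 1 such probe set. Expression was measured with Affymetrix Mouse Gene 1.0 ST arrays in whole liver of male mice at 24 weeks of age, 8 mice per genotype and 24 in all. The genotypes were alb-SREBP-1a∆P, alb-SREBP-1a and C57Bl6, the wildtype. Both transgenic lines are on the C57Bl6 background and carry the N-terminal, transcriptionally active part of human SREBP-1a with an HA tag under the albumin promoter, which drives it in hepatocytes and not in lymphocytes. In alb-SREBP-1a∆P the MAPK phosphorylation sites of that protein are mutated. SREBP-1a is a transcription factor of lipid synthesis, and the study described alb-SREBP-1a as a fatty liver model. The paper describes the mice of each genotype as male litter mates, kept on standard chow. Whether each line stems from a single founder is not given in the sources used here. Values are log2 RMA values, so a difference of 1 is a doubling.

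The liver holds a resident and a circulating lymphocyte population, in which NK cells are unusually frequent compared with blood. The T cell receptor signals through the CD3 chains, of which Cd3e and Cd3g encode the epsilon and gamma subunits. Cd4 and Cd8a encode the coreceptors that read MHC class II and class I molecules. The B cell receptor signals through CD79A and CD79B, and Ms4a1 encodes CD20, a surface protein of mature B cells. Klrb1c encodes NK1.1, the surface antigen that defines NK cells in C57Bl6 mice and is also found on natural killer T cells, and Nkg7 encodes a membrane protein of cytotoxic granules in NK cells and CD8 T cells. In whole liver RNA, fewer cells of a type and less RNA per cell cannot be told apart.

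Of the 9 genes, Klrb1c, Nkg7, Cd3e and Cd3g passed the test in some comparison of genotypes, and their promoters are shown for that reason. RefSeq windows of 300 bases, 250 before and 50 after the annotated start, were matched for 6 of the 9 genes in GRCm38.p6 (Cd3e, Cd3g, Cd8a, Cd79a, Nkg7 and Klrb1c). Written 5′ to 3′ on the gene's strand, capitals mark the letters AGGAAG, a core of ETS factor motifs, and TGTGGT, a core of RUNX factor motifs, on either strand. ETS and RUNX are families of transcription factors with many roles in lymphocytes.
Klrb1c, chr6:128788592-128788891, minus strand: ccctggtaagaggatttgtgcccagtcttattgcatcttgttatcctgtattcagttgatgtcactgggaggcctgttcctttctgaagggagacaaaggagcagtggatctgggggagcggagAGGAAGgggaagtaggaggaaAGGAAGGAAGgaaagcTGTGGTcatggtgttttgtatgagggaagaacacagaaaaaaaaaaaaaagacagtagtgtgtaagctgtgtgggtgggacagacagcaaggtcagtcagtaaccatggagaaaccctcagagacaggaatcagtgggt
Nkg7, chr7:43436888-43437187, plus strand: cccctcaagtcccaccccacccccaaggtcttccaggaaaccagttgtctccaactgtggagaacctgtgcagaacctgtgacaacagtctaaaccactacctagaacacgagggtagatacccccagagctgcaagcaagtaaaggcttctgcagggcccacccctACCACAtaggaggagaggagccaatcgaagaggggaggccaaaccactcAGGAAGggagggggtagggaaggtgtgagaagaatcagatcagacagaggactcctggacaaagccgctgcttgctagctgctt
Cd3e, chr9:45009562-45009861, minus strand: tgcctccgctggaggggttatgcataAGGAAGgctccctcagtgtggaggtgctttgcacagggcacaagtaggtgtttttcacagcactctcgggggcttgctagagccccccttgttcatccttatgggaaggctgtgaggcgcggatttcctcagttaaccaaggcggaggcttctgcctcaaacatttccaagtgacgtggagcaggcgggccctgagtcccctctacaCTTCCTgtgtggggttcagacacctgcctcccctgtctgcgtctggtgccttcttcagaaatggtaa
Cd3g, chr9:44980382-44980681, minus strand: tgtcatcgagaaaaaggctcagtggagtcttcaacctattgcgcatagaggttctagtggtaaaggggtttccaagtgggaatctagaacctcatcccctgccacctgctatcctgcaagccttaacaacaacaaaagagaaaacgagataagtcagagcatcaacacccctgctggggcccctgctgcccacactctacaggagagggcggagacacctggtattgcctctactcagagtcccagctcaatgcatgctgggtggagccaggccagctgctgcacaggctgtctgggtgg

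The Klrb1c window held 3 ETS matches, 2 of them overlapping in the run AGGAAGGAAG, and 1 RUNX match. Nkg7 held 1 of each, Cd3e held 2 ETS matches and Cd3g neither motif. Among the other windows, Cd79a held 1 ETS match and Cd8a none. In all, 4 of the 6 windows had an ETS match and 2 of 6 a RUNX match, beside 35.4% and 16.8% of all 32851 windows of that length. The sterol regulatory element TCACNCCAC, bound by SREBP factors, and the E-box CACGTG were in none of the 6 windows, and in 1.24% and 7.15% of all windows. These matches describe letters in the window. Cd3g and Cd3e lie close together on chromosome 9 with Cd3d between them, while Nkg7 and Cd79a are on chromosome 7 and Klrb1c, Cd4 and Cd8a on chromosome 6.

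The liver origin of the RNA was plain in all genotypes: the mean log2 value of 9 hepatocyte markers was 13.33 to 13.45 in alb-SREBP-1a∆P, 13.41 to 13.64 in alb-SREBP-1a and 13.47 to 13.72 in C57Bl6. Of the 9 lymphocyte markers 4 were brighter than the median probe set and 5 were dimmer. The mean over 24 arrays lay at the 61.5th percentile of probe sets for Cd3e, the brightest of the 9, at the 56.8th for Cd79b, the 53.5th for Nkg7 and the 51.0th for Cd4. The other 5 lay between the 10.9th percentile, for Klrb1c, and the 35.9th, for Cd8a. The alb-SREBP-1a∆P arrays also stood apart as a set: the SD over all probe sets was 2.02 to 2.09 there, against 2.14 to 2.23 in alb-SREBP-1a and 2.18 to 2.25 in C57Bl6, with dim probe sets higher and bright ones lower. No array repeated another (highest correlation 0.990). This compression touches every comparison with alb-SREBP-1a∆P, so each change below is also set beside the median change of its brightness decile, the probe sets of like mean level over the 24 arrays. Replicate 4 of alb-SREBP-1a∆P and replicates 1 and 2 of alb-SREBP-1a were known from earlier results to stand apart, and calls that depend on them are given with and without them.

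**Figure D1:**
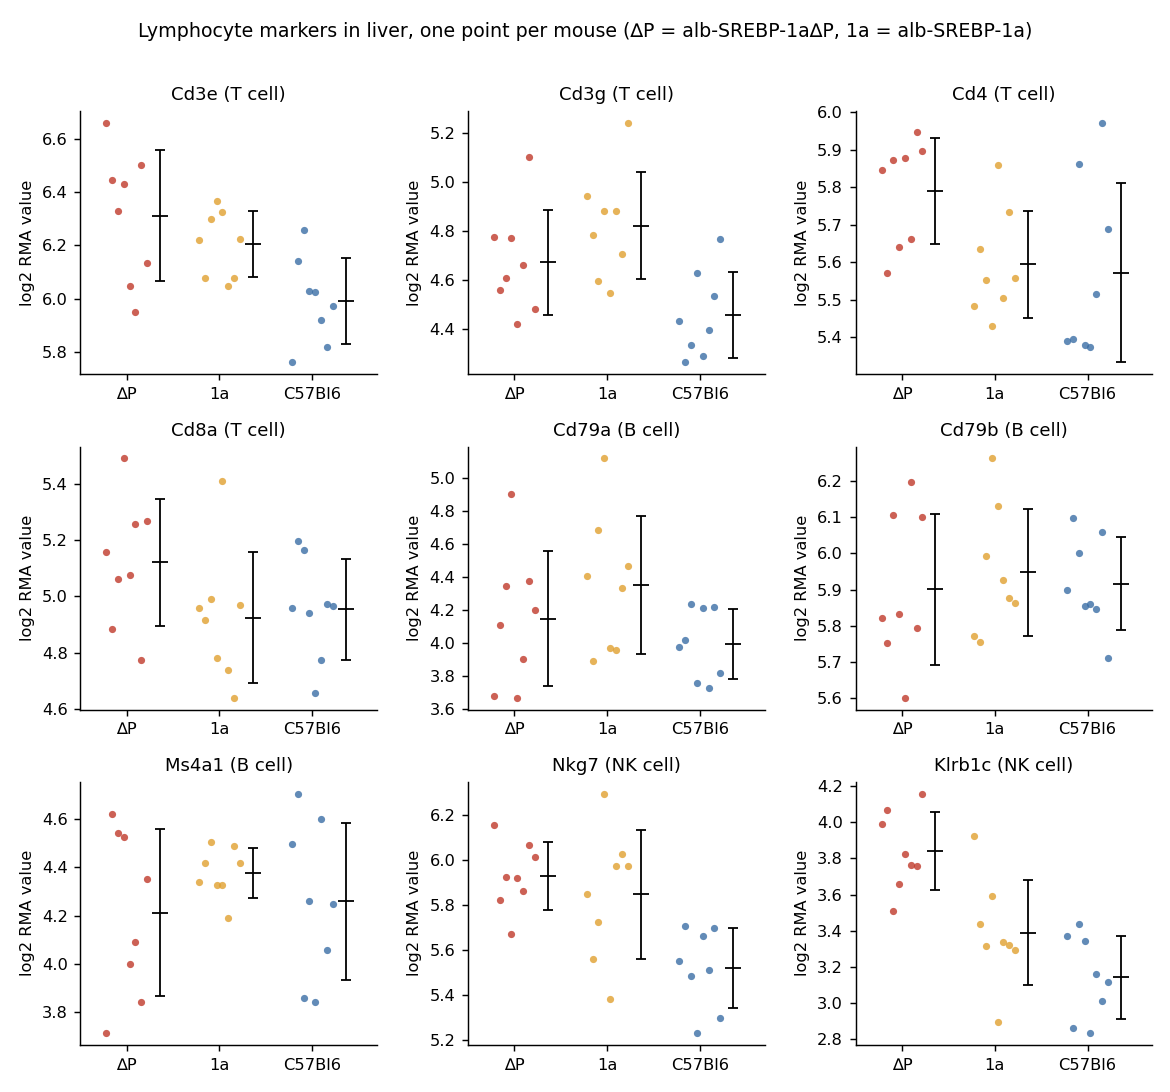
Log2 RMA value of each marker gene in each mouse for alb-SREBP-1a∆P (∆P), alb-SREBP-1a (1a) and C57Bl6 livers, with the mean and SD of 8 mice beside the points. The 8 Klrb1c values of alb-SREBP-1a∆P, 3.51 to 4.16, all lie above the 8 of C57Bl6, 2.83 to 3.44, whereas the 3 genotypes overlap for all B cell markers.

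The first question was which lymphocyte markers differ between alb-SREBP-1a∆P, in which the phosphorylation sites are lost, and C57Bl6. Both NK cell markers and the T cell marker Cd3e rose, by 1.25-fold to 1.62-fold, and no B cell marker of the 9 passed the test. In limma with p-values adjusted over all 35556 probe sets, 3 of the 9 markers rose and 0 fell. Of all probe sets 27.0% rose and 20.2% fell in this comparison, so 3 of 9 is close to the general share. At an unadjusted p under 0.05, 5 of the 9 passed, all upward, while 16777 of all 35556 probe sets passed even after adjustment. The median log2 change of the 9 was 0.22, beside 0.11 over all probe sets.

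Klrb1c had the largest change of the 9. Its log2 values were 3.51 at the lowest, 3.79 at the median and 4.16 at the highest in alb-SREBP-1a∆P, against 2.83, 3.14 and 3.44 in C57Bl6. The groups did not overlap. The means were 3.84 ± 0.22 and 3.14 ± 0.23 (SD, n = 8 each), in the same order, a log2 change of 0.70 ± 0.11 (SE), 1.62-fold, with adjusted p = 0.000107. This probe set lies in the second decile of the array by brightness, where the median change was 0.32 and 43.6% of probe sets rose, and Klrb1c stood 0.38 above that median. Its change was at the 86.1th percentile of the changes in that decile. Klrb1a, a closely related receptor gene of the same cluster, rose too, by 0.53 ± 0.12, but lost the call under quantile normalization (adjusted p = 0.284) and cyclic loess (0.18, adjusted p = 0.290). Cross-hybridization between the Klrb1 genes was not tested.

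Nkg7 rose with it. The lowest, median and highest values were 5.67, 5.92 and 6.16 in alb-SREBP-1a∆P, against 5.23, 5.53 and 5.71 in C57Bl6, and 7 of 8 alb-SREBP-1a∆P livers lay above every C57Bl6 liver. The log2 change was 0.41 ± 0.09, 1.33-fold (adjusted p = 0.00135). In the sixth decile, where Nkg7 lies, the median change was 0.11 and 24.0% of probe sets rose, and Nkg7 was at the 87.5th percentile of the changes.

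Cd3e reached 5.95, 6.38 and 6.66 in alb-SREBP-1a∆P (lowest, median, highest), against 5.76, 6.0 and 6.26 in C57Bl6. Here 5 of 8 alb-SREBP-1a∆P livers were above every C57Bl6 liver, and the lowest 3 lay inside the C57Bl6 range. The log2 change was 0.32 ± 0.11, 1.25-fold, with adjusted p = 0.0198. Probe sets of its decile had a median change of -0.04, so Cd3e moved against the shift of its neighbours in brightness. Its change was at the 85.9th percentile of that decile, in which 16.7% of probe sets rose.

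The other T cell genes were not called. Cd3g differed by 0.22 ± 0.10 (adjusted p = 0.0874) and Cd4 by 0.22 ± 0.10 (adjusted p = 0.0860), with intervals that just left out 0 before adjustment. Cd8a differed by 0.17 ± 0.10 (adjusted p = 0.195). For Cd3g and Cd8a these values lay 0.06 below the median of their own decile.

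B cell markers did not pass in either direction. Cd79a ran from 3.67 to 4.90 in alb-SREBP-1a∆P, against 3.73 to 4.24 in C57Bl6, a difference of 0.15 with a 95% interval of -0.17 to 0.48. Cd79b differed by -0.02 (interval -0.21 to 0.18) and Ms4a1 by -0.05 (interval -0.38 to 0.29). Ms4a1 was spread over 3.71 to 4.62 in alb-SREBP-1a∆P and 3.84 to 4.70 in C57Bl6. Set beside the median change of their decile, the differences of Cd79a, Cd79b and Ms4a1 lay lower by 0.17, 0.12 and 0.32.

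**Figure D2:**
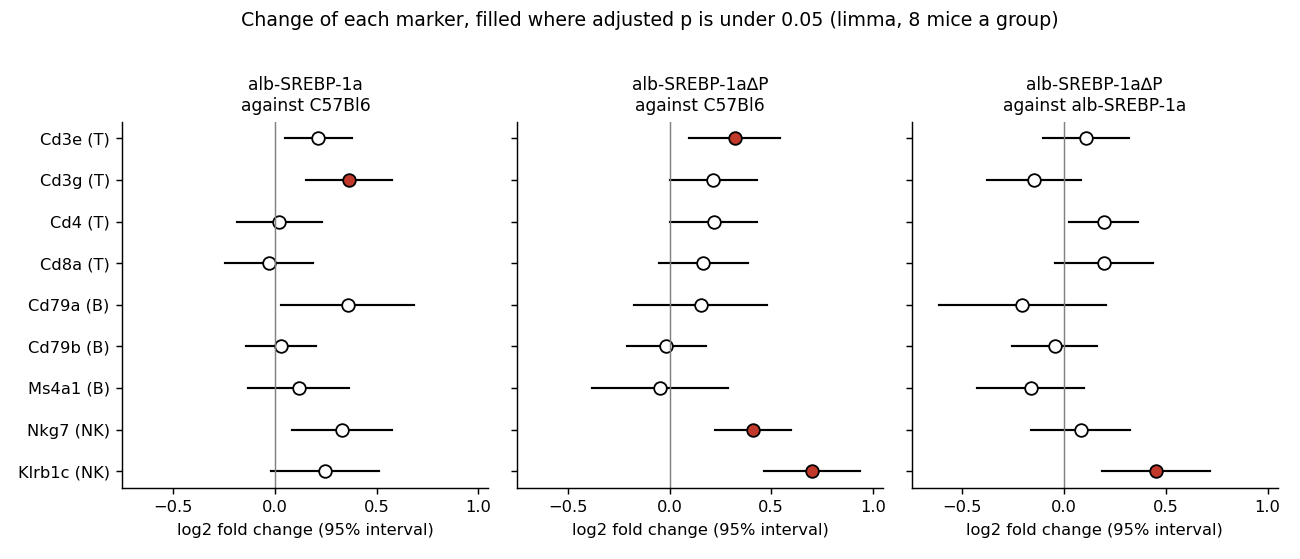
Log2 fold change of each marker with its 95% interval in the 3 comparisons of 8 mice a group; filled circles passed an adjusted p of 0.05 in limma over all probe sets. Klrb1c, Nkg7 and Cd3e are filled for alb-SREBP-1a∆P against C57Bl6, Cd3g for alb-SREBP-1a against C57Bl6 and Klrb1c between the transgenic lines.

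Scaling matters here. Quantile normalization, subtracting each array's median (centring) and cyclic loess moved the median change of all probe sets by -0.14, -0.16 and -0.11, and higher probe sets made up 40.6%, 31.9% and 51.2% of the calls, beside 57.1% as deposited. Klrb1c kept its call in all 26 alternative settings, with changes of 0.34 to 0.75 and no adjusted p above 0.0292. Nkg7 kept it in all 27, with changes of 0.25 to 0.45. Cd3e lost it under quantile normalization (0.27, adjusted p = 0.0932) and under centring (0.16, adjusted p = 0.267), and kept it under cyclic loess (0.34, adjusted p = 0.0211). Cd3g and Cd8a turned to small negative changes of -0.07 to -0.09 under quantile normalization and cyclic loess, neither called.

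The second question was which markers differ between alb-SREBP-1a, with the functional phosphorylation sites, and the same C57Bl6 mice. Cd3g rose by 1.29-fold and was the only marker of the 9 to pass. Of all probe sets 6.77% rose and 3.98% fell. The signs leaned upward, positive for 8 of 9, with a median of 0.21 beside 0.01 over all probe sets, and 4 of 9 passed an unadjusted p of 0.05. The share of all probe sets at that unadjusted threshold was not counted, and 3824 of 35556 passed after adjustment.

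Cd3g had values of 4.55, 4.83 and 5.24 in alb-SREBP-1a (lowest, median, highest), against 4.26, 4.41 and 4.77 in C57Bl6, with 5 of 8 alb-SREBP-1a livers above every C57Bl6 liver. The log2 change was 0.37 ± 0.10 (adjusted p = 0.0251), and Cd3g stood 0.35 above the median of its own decile, at the 93.3th percentile of the changes there. The call was lost under quantile normalization (0.33, adjusted p = 0.0525) and without alb-SREBP-1a replicates 1 and 2 together (0.35, adjusted p = 0.0658), and it held with any single mouse left out.

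The means of Nkg7 and Cd79a were about as far apart as those of Cd3g, with more scatter. Nkg7 ran over 5.38, 5.91 and 6.30 in alb-SREBP-1a, against 5.23, 5.53 and 5.71 in C57Bl6. Of the 8 alb-SREBP-1a livers 6 were above every C57Bl6 liver, and the difference was 0.33 ± 0.12 (adjusted p = 0.0811). It passed with array weights (0.42, adjusted p = 0.0135) and without alb-SREBP-1a replicate 5, the lowest liver of that group (0.40, adjusted p = 0.0244). Cd79a covered 3.89 to 5.12 in alb-SREBP-1a, against 3.73 to 4.24 in C57Bl6, a difference of 0.36 ± 0.16 (adjusted p = 0.162).

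Cd3e was higher by 0.21 ± 0.08 (adjusted p = 0.0907), with values of 6.05 to 6.37 in alb-SREBP-1a and 5.76 to 6.26 in C57Bl6, and passed without C57Bl6 replicate 3 (0.25, adjusted p = 0.0399). Klrb1c, which had separated alb-SREBP-1a∆P from C57Bl6, overlapped here: it ran from 2.89 to 3.92 in alb-SREBP-1a, against 2.83 to 3.44 in C57Bl6, a difference of 0.25 ± 0.13 (adjusted p = 0.239). Cd4, Cd8a and Cd79b differed by 0.02, -0.03 and 0.03, the intervals of all 3 lying between -0.25 and 0.23. Ms4a1 differed by 0.12 (interval -0.13 to 0.36), and was tightly grouped in alb-SREBP-1a, with an SD of 0.10, beside 0.33 in C57Bl6.

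**Figure D3:**
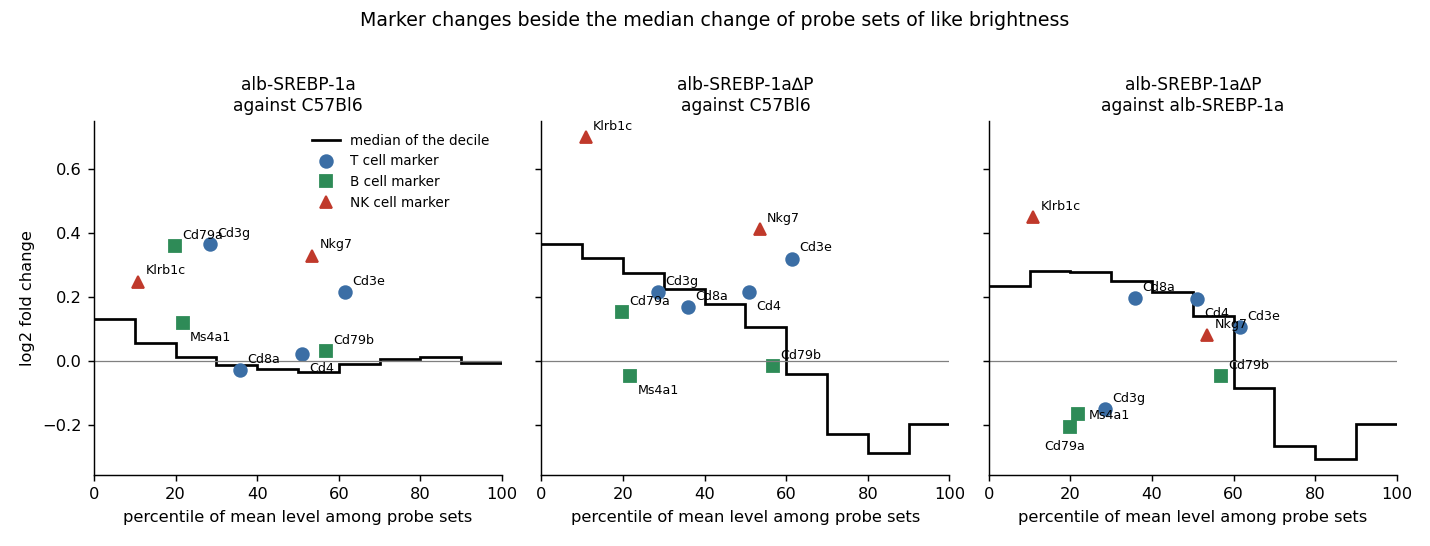
Log2 fold change of each marker (points) against the percentile of its mean level over 24 arrays among all probe sets, with the median change of each decile of probe sets as a black step line, for the 3 comparisons. In both comparisons with alb-SREBP-1a∆P the line runs from positive values for dim probe sets to negative values for bright ones, whereas for alb-SREBP-1a against C57Bl6 it stays between -0.03 and 0.13.

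The third comparison set the 2 transgenic lines against each other, alb-SREBP-1a∆P over alb-SREBP-1a. Klrb1c alone rose, by 1.37-fold, and 0 of 9 fell, while 22.8% of all probe sets rose and 21.4% fell. At an unadjusted p under 0.05, 2 of the 9 passed, while 15712 of all 35556 probe sets passed even after adjustment. Klrb1c had a lowest, median and highest value of 3.51, 3.79 and 4.16 in alb-SREBP-1a∆P, against 2.89, 3.33 and 3.92 in alb-SREBP-1a. Only 3 alb-SREBP-1a∆P livers lay above every alb-SREBP-1a liver, because replicate 1 of alb-SREBP-1a reached 3.92. The change was 0.45 ± 0.13 (adjusted p = 0.00948), at the 72.2th percentile of a decile whose median change was 0.28. The call was lost under quantile normalization (0.21, adjusted p = 0.259), centring (0.28, adjusted p = 0.0920) and cyclic loess (0.18, adjusted p = 0.342).

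Nkg7 did not separate the lines: it ran from 5.67 to 6.16 in alb-SREBP-1a∆P, inside the 5.38 to 6.30 of alb-SREBP-1a, with a difference of 0.08 (interval -0.16 to 0.32). Cd4 came close to the threshold. It had a median of 5.86 in alb-SREBP-1a∆P, against 5.56 in alb-SREBP-1a, a difference of 0.19 ± 0.08 (adjusted p = 0.0573), and passed in 7 of 28 settings, among them without alb-SREBP-1a replicate 5 (0.23, adjusted p = 0.0216), without alb-SREBP-1a∆P replicate 2 (0.23, adjusted p = 0.0335) and without alb-SREBP-1a∆P replicate 4 (0.22, adjusted p = 0.0438). Under the 3 other scalings its difference was 0.03 to 0.07. Cd8a differed by 0.20 ± 0.11 (adjusted p = 0.172) and passed without alb-SREBP-1a replicate 5 (0.26, adjusted p = 0.0432).

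Cd3g, Cd79a and Ms4a1 had lower means in alb-SREBP-1a∆P compared with alb-SREBP-1a, with differences of -0.15, -0.21 and -0.16, none called as deposited. These 3 are dim probe sets in deciles whose median rose by 0.28, and they lay 0.43, 0.49 and 0.44 below those medians. Under quantile normalization, centring and cyclic loess Cd3g fell by 0.41, 0.32 and 0.43 (adjusted p = 0.0187, 0.0356 and 0.0125), and Ms4a1 fell by 0.45, 0.33 and 0.46 (adjusted p = 0.0318, 0.0415 and 0.0209). Cd79b differed by -0.05 and Cd3e by 0.11 as deposited, neither called.

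**Figure D4:**
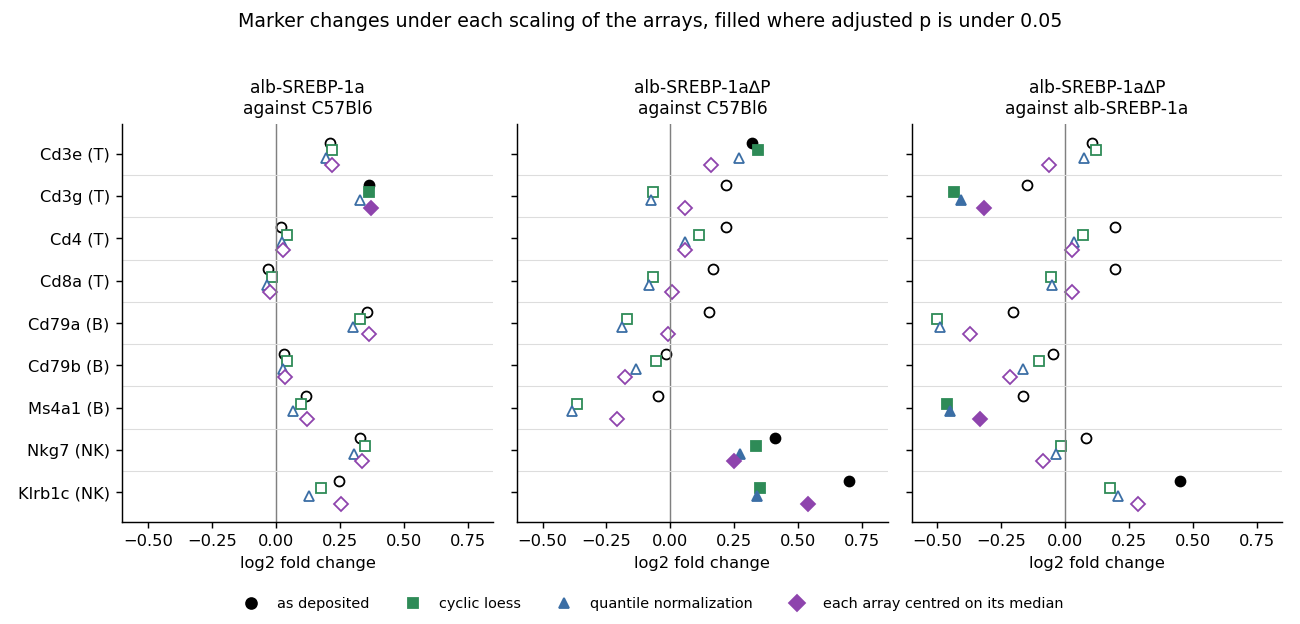
Log2 fold change of each marker as deposited and after cyclic loess, quantile normalization or centring of each array on its median, filled where the adjusted p was under 0.05. For alb-SREBP-1a∆P against C57Bl6 Klrb1c and Nkg7 are filled under all 4, and between the transgenic lines the filled marker changes from Klrb1c as deposited to Cd3g and Ms4a1 under the other 3.

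The order of the genotype means was alb-SREBP-1a∆P, alb-SREBP-1a, C57Bl6 for Klrb1c (3.84, 3.39 and 3.14), Nkg7 (5.93, 5.85 and 5.52) and Cd3e (6.31, 6.21 and 5.99). In the main fits neighbours in that order differed by test only for Klrb1c between the transgenic lines. That call was lost under the 3 other scalings and kept in 24 of 27 alternative settings. For Cd3g the order was alb-SREBP-1a, alb-SREBP-1a∆P, C57Bl6 (4.82, 4.67 and 4.46), and neighbours were not separated by test as deposited. Comparisons with C57Bl6 share the same 8 C57Bl6 mice and are not independent of each other.

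Whether the markers rise and fall together from mouse to mouse was asked within genotypes, from each value minus its genotype mean over the 24 livers. Over the 10 pairs within a lineage the median Pearson correlation was 0.14, with a range of -0.24 to 0.36, and over the 26 pairs between lineages it was 0.00, with a range of -0.49 to 0.35. None of the 36 pairs passed an adjusted p of 0.05, with Pearson's r or with Spearman's rho (two-sided permutation test within genotypes). At an unadjusted p under 0.05, 1 pair passed by r and 0 by rho.

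That pair was Cd8a and Nkg7, with r = -0.49 (permutation p = 0.0227, adjusted p = 0.818) and rho = -0.29 (permutation p = 0.179, adjusted p = 0.954). Without the 2 livers farthest from the median of Cd8a, r was -0.20, and leaving out the extreme values of a marker can itself shrink r. The closest pair within a lineage was Cd79a and Cd79b, the 2 signalling chains of the B cell receptor (r = 0.36, permutation p = 0.131, adjusted p = 0.840; rho = 0.36, permutation p = 0.119, adjusted p = 0.954). Without the 2 livers farthest from the median of Cd79a its r was 0.30. Cd3e and Cd3g, chains of the same receptor, gave r = 0.16 (permutation p = 0.494, adjusted p = 0.840) and rho = 0.10 (permutation p = 0.658, adjusted p = 0.954), and r = 0.13 without the 2 livers farthest from the median of Cd3e. Nkg7 and Klrb1c gave r = 0.17 (permutation p = 0.488, adjusted p = 0.840) and rho = -0.03 (permutation p = 0.903, adjusted p = 0.985), and r = -0.17 without the 2 livers farthest from the median of Nkg7.

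Single livers show this scatter. In alb-SREBP-1a, replicate 5 had the highest Cd8a (5.41) and Cd4 (5.86) and the lowest Nkg7 (5.38) and Klrb1c (2.89) of its genotype. Replicate 4 of the same genotype had the highest Cd3e (6.37), Cd79a (5.12), Cd79b (6.26) and Nkg7 (6.30). In alb-SREBP-1a∆P, 7 of 9 markers lay above the genotype mean in replicate 8 and 1 of 9 in replicate 5.

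**Figure D5:**
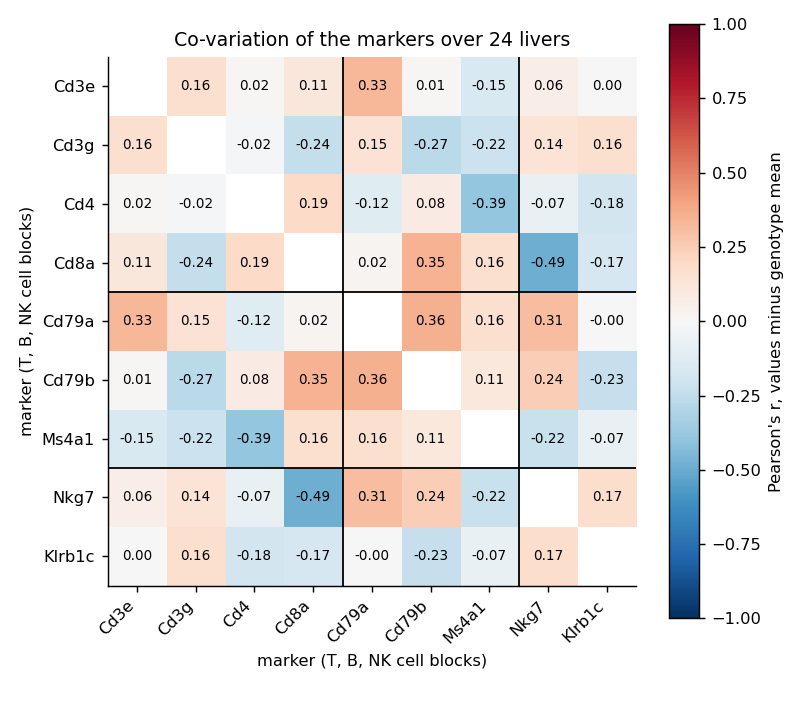
Pearson correlation of each pair of markers over 24 livers, computed from log2 values minus the genotype mean; black lines separate the T, B and NK cell blocks. Pairs within a lineage have a median of 0.14 and pairs between lineages a median of 0.00, no pair passed the adjusted test, and the most negative cell is Cd8a with Nkg7 at -0.49.

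The genes most like a marker in pattern were sought for the brightest marker of each lineage, among 11511 genes above the median level of all probe sets or above the marker itself, by Pearson correlation over the 24 livers after removing genotype means. They were Fam241b (0.71), Foxp4 (0.70) and Avp (0.70) for Cd3e. For Cd79b they were Tnfrsf22 (0.75), Pirt (0.69) and Pmf1 (0.69), and for Nkg7 Tuft1 (0.69), Tmem258 (0.67) and Gata2 (0.65). None of the 9 is a member of the lymphocyte lists used here, and as the highest of all genes compared these correlations describe only these livers. The T, B and NK lists had median levels of 5.05, 5.32 and 4.50, below the 5.61 of the median probe set. Many of their genes were therefore not among those compared, so their absence was partly set by that rule. Among all 19937 other genes, Cd3g ranked 5717th by likeness to Cd3e, Cd79a ranked 1539th by likeness to Cd79b and Klrb1c ranked 4274th by likeness to Nkg7.

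Wider lists of lymphocyte genes, without the 9, were read for the same comparisons. Of the T cell list 25 of 28 genes were measured, of the B and plasma cell list 20 of 22, of the NK and cytotoxic cell list 22 of 22, and of a pan-leukocyte list 14 of 15. In alb-SREBP-1a∆P against C57Bl6, 10 T cell, 11 NK and cytotoxic, 4 B and plasma cell and 3 pan-leukocyte genes rose and none of these fell. The median changes were 0.22, 0.29, 0.18 and 0.05, in the same order, beside 0.11 over all probe sets. Under quantile normalization 2, 2, 2 and 2 rose, and 2 B and plasma cell genes fell. As deposited, 37.1% of probe sets rose in the decile that holds the median level of the T cell list and 40.5% in that of the NK and cytotoxic list. For the B and plasma cell list and the pan-leukocyte list the shares were 31.5% and 16.7%, and 27.0% of all probe sets rose.

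Among the named T cell genes Cd247, the zeta chain through which the T cell receptor signals, rose by 0.42 ± 0.08 (adjusted p = 0.000490), and Lef1, a transcription factor of naive T cells, by 0.42 ± 0.09 (adjusted p = 0.000966). Both kept the call under all 26 settings. Gimap3, Trat1, Cd28 and Cd96 rose by 0.39 to 0.61 and Lat, an adaptor of receptor signalling, by 0.40. Gimap3, Trat1, Cd28, Cd96 and Lat lost the call under quantile normalization and cyclic loess, and Lat also under centring. Cd3d, the CD3 delta chain, did not pass (0.12, adjusted p = 0.352). Rag1, which is active in developing rather than mature lymphocytes and is named after its value was seen, rose by 0.51. Under quantile normalization and cyclic loess Rag1 was not called either, as only Cd247 and Lef1 of the T cell list rose there.

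Among the NK and cytotoxic genes Ccl5, a chemokine of activated T and NK cells, rose by 0.54 ± 0.11 (adjusted p = 0.000664), and Gzmk, a granzyme, by 0.52 ± 0.11 (adjusted p = 0.00162), both under every setting. Klrg1 and Klrc1, 2 lectin-like receptors, rose by 0.55 and 0.53 and Gzmb, granzyme B, by 0.43, and all 3 lost the call under quantile normalization and cyclic loess, Gzmb also under centring. Cd244a, a receptor of the SLAM family on NK cells, rose by 0.36 and lost the call under all 3 other scalings. Prf1, the pore-forming protein perforin of cytotoxic granules, did not pass (0.21, adjusted p = 0.0889), except without alb-SREBP-1a∆P replicate 4. On the B lineage side the genes that rose were Pou2af1, a coactivator of immunoglobulin transcription (0.45 ± 0.10, adjusted p = 0.00172), Ighm, the IgM heavy chain (0.48 ± 0.12, adjusted p = 0.00403), Fcrla, an intracellular Fc receptor-like protein, and Cd22, an inhibitory coreceptor. Fcrla lost the call under quantile normalization (0.19, adjusted p = 0.261) and cyclic loess (0.18, adjusted p = 0.251). Cd22 lost it under all 3 other scalings. Pou2af1 and Ighm kept the call under all 27 settings, and both also rose in alb-SREBP-1a∆P compared with alb-SREBP-1a, by 0.61 and 0.59. In that comparison Bank1 and Btk of the same list fell. Of the pan-leukocyte genes Ikzf1, a transcription factor of lymphocyte development, rose by 0.32 and lost the call under all 3 other scalings.

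In alb-SREBP-1a against C57Bl6, 7 of 14 pan-leukocyte genes rose, with a median change of 0.33, where 6.77% of all probe sets rose and 6.83% of those in the decile of the list's median level. In the other lists those that rose were 1 of 25 T cell genes (Icos), 3 of 20 B and plasma cell genes (Bank1, Cd37 and Btk) and 1 of 22 NK and cytotoxic genes (Ccl5), and none of the 4 lists had a gene that fell. The median changes of the T, B and NK lists were 0.01, 0.06 and 0.10, beside 0.01 over all probe sets. Cd52, a small surface glycoprotein of lymphocytes and monocytes, had values of 6.61, 7.09 and 7.36 in alb-SREBP-1a (lowest, median, highest), against 6.0, 6.03 and 6.23 in C57Bl6, with no overlap. Its change was 0.99 ± 0.09 (adjusted p = 2.43e-06), and that of Laptm5, a lysosomal protein of blood cells, was 0.99 ± 0.10 (adjusted p = 1.05e-05). Both also rose in alb-SREBP-1a∆P, by 0.59 and 0.67. Icos, a T cell costimulator, rose by 0.41 ± 0.10 and Ccl5 by 0.66 ± 0.16. Bank1, a scaffold of B cell receptor signalling, rose by 0.40 ± 0.07, Cd37, a tetraspanin, by 0.35 ± 0.08 and Btk, the tyrosine kinase that B and myeloid cells share, by 0.44 ± 0.11. Of these 7 genes only Btk lost the call, without alb-SREBP-1a replicates 1 and 2. Arhgdib rose by 0.34 (adjusted p = 0.0435) and kept the call in 11 of 28 settings.

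Between the lines, alb-SREBP-1a∆P over alb-SREBP-1a, 0 pan-leukocyte genes rose and 9 of 14 fell, among them Cd48 by 0.47 (adjusted p = 0.00336). Of all probe sets 21.4% fell, and 29.3% in the decile of the list's median level. Of the T cell list 8 of 25 rose and of the NK and cytotoxic list 6 of 22, and none fell. In the deciles of those lists' median levels 36.3% and 38.3% of probe sets rose, so both counts were no higher than among probe sets of like brightness. Of the B and plasma cell list 3 rose and 3 fell, where 34% of probe sets rose and 5.82% fell in the decile of its median level. Bank1 fell by 0.26 and Btk by 0.36, and both lost the call without alb-SREBP-1a replicates 1 and 2. Under quantile normalization 5 pan-leukocyte genes fell, 1 T cell gene rose and 1 fell, and no NK and cytotoxic gene was called. Lef1 rose by 0.49 and kept its call under all 27 settings, and Cd48 kept its own under all 27. Prf1 and Cd244a rose by 0.38 and 0.43 and Arhgdib fell by 0.45. All 3 lost the call under quantile normalization, and Cd244a and Arhgdib also under cyclic loess.

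Markers of other blood and liver cells moved in the same comparisons. In alb-SREBP-1a against C57Bl6, where 6.77% of all probe sets rose, 5 of 10 Kupffer cell and macrophage markers rose and none fell, as they did under all 3 other scalings, and their summed linear value ran from 2407 to 4184 in alb-SREBP-1a, against 1962 to 3013 in C57Bl6. In alb-SREBP-1a∆P against C57Bl6, where 27.0% of all probe sets rose and 20.2% fell, 4 of 10 rose, with sums of 2296 to 4148 in alb-SREBP-1a∆P, and 5 of 8 neutrophil markers rose, with sums of 305 to 387 in alb-SREBP-1a∆P against 262 to 319 in C57Bl6. Under quantile normalization, centring and cyclic loess 4, 1 and 6 of the 10 Kupffer cell markers rose there, and 1, 0 and 1 of the 8 neutrophil markers. Of 9 hepatocyte markers 6 fell and 1 rose, in a decile where 47.2% of probe sets fell, and 3, 8 and 3 fell under those scalings. The part of these cell types in the lymphocyte marker values was not tested.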

How the data were processed

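Liver RNA of 24 mice was measured on 24 Affymetrix arrays. The deposited values are log2 RMA values per probe set, which the authors made with Affymetrix Expression Console (RMA, per the labels) and which were used as deposited: 35556 probe sets on 24 arrays, with no missing value. Depth does not apply to arrays, and the number of mice limits precision. Probe sets were named from the platform annotation: 21789 had 1 gene symbol, 1621 several and 12146 none. The brightest single-symbol probe set stood for a gene.

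Genotypes were compared pairwise, 8 against 8, with limma 3.58.1 in R 4.3.3 (lmFit and eBayes, Benjamini-Hochberg adjustment over all 35556 probe sets, adjusted p under 0.05). SE is the moderated standard error. Co-variation was tested with 100000 permutations within genotypes, adjusted over 36 pairs, in Python 3.11.15. The marker genes and lists were chosen with earlier results of these data known. Named were all 9 markers, the 3 genes of each lymphocyte and pan-leukocyte list with the smallest p per comparison, and the 3 genes most like the brightest marker of each lineage. Cd3d, Rag1 and Cd22 were named after their values were seen. Alternatives were other scalings, a replicate block, all arrays in 1 fit, a variance trend, array weights, brighter probe sets only, other rules for probe sets, the methods' t-test, and mice left out, singly or as the arrays known from earlier results to stand apart. Only the value table was used, and promoter windows are from RefSeq (GRCm38.p6).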

Additional observations from a re-analysis of the deposited data

Results flagged for a closer look

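In 108 genotype groups of 8 livers, for the 9 markers and the named list genes, 7 held a liver far from the others of its genotype by Dixon's test. Chance alone would give about 1 in 20. Among the markers the one case was Cd8a in alb-SREBP-1a replicate 5, the highest at 5.41, with the next liver at 4.99. Cd8a passed between the transgenic lines only when that liver was left out (0.26, adjusted p = 0.0432, limma). Among the list genes, Cd244a was highest in alb-SREBP-1a replicate 8 (4.83) and Laptm5 was highest in alb-SREBP-1a∆P replicate 1 (8.42). In C57Bl6, Cd247 was lowest in replicate 4 (4.87), Lef1 lowest in replicate 8 (5.07), Fcrla lowest in replicate 6 (3.92) and Cd52 highest in replicate 8 (6.23).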

How the results depend on the processing

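No called marker changed direction under any setting run. For alb-SREBP-1a against C57Bl6, 0 markers rose under quantile normalization and 0 with alb-SREBP-1a replicates 1 and 2 left out; 2 rose with array weights and 2 among the 4 markers brighter than the median probe set. With 1 mouse left out, 1 to 2 markers rose and 3020 to 3799 probe sets were called, beside 3824 in all. With only the brightest probe set, or the mean, of each of 19938 genes, 2418 and 2380 were called. For alb-SREBP-1a∆P against C57Bl6, with 16777 called, the counts were 11117 under cyclic loess, 9858 for brighter probe sets only, 10895 for the brightest probe set and 10943 for the gene mean. With 1 mouse left out, 3 to 4 markers rose and 15009 to 16939 probe sets were called. Cd3g passed without C57Bl6 replicate 8 (0.26, adjusted p = 0.0447), and Cd4 without C57Bl6 replicate 3 (0.26, adjusted p = 0.0447) or 7 (0.27, adjusted p = 0.0243). Between the transgenic lines, alb-SREBP-1a∆P over alb-SREBP-1a, 0 markers rose and 2 fell under quantile normalization, centring and cyclic loess. Array weights, the gene mean and the methods' t-test, adjusted, gave 2 that rose. With 15712 called, quantile normalization gave 8319, cyclic loess 7706 and brighter probe sets 10136. Leaving out 1 mouse gave 1 to 3 that rose and 13395 to 16594 called, and 0 fell in any comparison. The cause was not tested, except that fewer probe sets were tested in the restricted settings.

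In alb-SREBP-1a against C57Bl6 higher probe sets were 63.0% of the calls as deposited and 51.6% under quantile normalization. Between the transgenic lines they were 51.6% as deposited, 41.1% under quantile normalization and 23.9% under centring, and the median of all moved by -0.10 and -0.17. The methods' threshold, an unadjusted p under 0.05 with a 1.5-fold change, took 1 of the 9 markers (Klrb1c) for alb-SREBP-1a∆P against C57Bl6 and 0 in the other comparisons. The share of all probe sets at that threshold was not counted. Deviations of same-numbered mice correlated at -0.12 to 0.28, and the main fits did not pair them by number. These correlations cannot exclude a weaker pairing. A replicate block left 1 marker that rose for alb-SREBP-1a against C57Bl6, 3 for alb-SREBP-1a∆P against C57Bl6 and 1 between the transgenic lines, with 3163, 16207 and 13749 probe sets called, and changed no marker's call. No pair of markers passed in any of the 4 other settings of the co-variation test. Signals near the bottom of the array limit Klrb1c, Cd79a and Ms4a1 most, and the files hold no detection call.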
